A study of Mus musculus with 4 samples.

Results

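The basement membrane genes described here are Col4a1, Col4a2, Lama1, Lama5, Lamb1, Lamc1, Nid1, Nid2, Hspg2 and Sparc. They were chosen by symbol. Every probe set annotated to exactly 1 of these symbols was taken, which gave 22 probe sets of 34945 with 1 symbol, and 10 genes of 18193. The manufacturer's control probe sets were left out of these totals. A probe set is a group of short array probes against a transcript. Signals below a floor of 36.6 were not told apart. Of the 22 probe sets, 18 exceeded it on all 4 arrays. A further 2 passed it on some arrays only, and 2 were at the floor on every array.

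A basement membrane is a thin sheet of extracellular matrix on which epithelial cells rest. Laminins, trimers of an alpha, a beta and a gamma chain, and collagen IV, a trimer of Col4a1 and Col4a2 chains in most tissues, each form a network, and nidogens and the proteoglycan perlecan join them. In the early mouse embryo these proteins are made in large amounts by the primitive endoderm and above all by its parietal derivative, which lays down a thick membrane under the trophoblast.

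The samples were mouse embryonic stem (ES) cells, which can form the tissues of the embryo, in 4 groups of 1 Affymetrix array each. They were cells labelled as a constitutive knockout (KO) of Ring1B, a control of that line labelled wild-type, cells labelled as a conditional double KO of Ring1A and Ring1B at day 4, and a control of that line labelled wild-type. Ring1B (gene symbol Rnf2) and Ring1A (gene symbol Ring1) are the RING-finger subunits of the Polycomb repressive complex PRC1. Per the series' design text the double KO was made conditional with OHT because constitutive double KO cells could not be maintained. The labels name no clone, strain, promoter or medium, and do not say whether the control of the double KO received OHT or carries a change at Ring1. With 1 array a group here no test was possible, every difference is that of 1 array from another, and precision is limited by the number of arrays.

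Facts of the whole array set that touch these genes were as follows. Signals were scaled to a common trimmed mean of 277, because the deposited means differed between the pairs of arrays. The pluripotent ES cell markers were above the floor on all 4 arrays in 10 of 10 cases, with summed signals between 47188 and 63283. Dppa5a alone gave between 13666 and 20825 of these sums. Rnf2, at its brightest probe set, read 2775 on the Ring1B KO array against 2580 on its control, and 1986 on the double KO array against 2182 on its control, less than 2-fold apart in each pair. Ring1 read 164 against 146 in the first pair and 55.6 against 44.7 in the other. Whether these probe sets lie in the deleted parts is not known here, so the names Ring1B KO array and double KO array stand for the labels only. Were the labels of a KO array and its control exchanged, each direction given for that pair would turn, and no value here settles the labels.

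The genes Col4a1 and Col4a2, whose start sites lie close together, had the 2 largest differences of the 10 in both comparisons, and their upstream sequences are shown for that reason. Those of Sparc and Lama5, both lower on the double KO array, are shown for contrast. The windows are the 250 bases before the RefSeq start site used here for each gene (GRCm38.p6), 5′ to 3′ on the strand of the gene. They lie at chr8:11312827-11313076 (minus strand) for Col4a1, chr8:11312555-11312804 (plus) for Col4a2, chr11:55420081-55420330 (minus) for Sparc and chr2:180225860-180226109 (minus) for Lama5. Capitals mark matches to the motifs searched on both strands. These were GATAA (the core bound by GATA factors), ACAAT (bound by Sox factors), GGGCGG (the GC box), CCAAT (the NF-Y box) and TATAAA (the TATA box).
Col4a1: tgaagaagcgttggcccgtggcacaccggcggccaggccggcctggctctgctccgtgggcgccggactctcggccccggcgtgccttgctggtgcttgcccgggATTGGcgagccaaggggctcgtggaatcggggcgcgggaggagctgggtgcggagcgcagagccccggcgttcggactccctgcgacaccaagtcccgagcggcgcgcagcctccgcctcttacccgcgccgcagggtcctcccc
Col4a2: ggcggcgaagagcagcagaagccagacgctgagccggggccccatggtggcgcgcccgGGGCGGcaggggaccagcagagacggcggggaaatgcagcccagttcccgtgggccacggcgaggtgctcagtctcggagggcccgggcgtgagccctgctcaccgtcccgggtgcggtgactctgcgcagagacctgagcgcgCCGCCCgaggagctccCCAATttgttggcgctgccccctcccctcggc
Sparc: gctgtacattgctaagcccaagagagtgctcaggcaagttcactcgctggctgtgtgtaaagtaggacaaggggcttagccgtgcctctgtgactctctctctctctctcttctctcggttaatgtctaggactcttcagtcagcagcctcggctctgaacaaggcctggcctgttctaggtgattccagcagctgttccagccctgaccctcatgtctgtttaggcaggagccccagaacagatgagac
Lama5: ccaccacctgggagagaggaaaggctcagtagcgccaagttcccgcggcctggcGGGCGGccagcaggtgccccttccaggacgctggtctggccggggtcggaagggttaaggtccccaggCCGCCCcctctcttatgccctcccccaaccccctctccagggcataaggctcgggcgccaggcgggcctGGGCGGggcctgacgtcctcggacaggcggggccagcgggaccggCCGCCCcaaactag

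The start sites used here for Col4a1 and Col4a2 are 21 bases apart on opposite strands. Transcripts from these sites overlap over their first 22 bases. The RefSeq gene spans share 85 bases, because that of Col4a1 reaches past its start site, to 11312889. The spans of Lama5, Lamb1 and Hspg2 also reach past the start sites used. Part of the window of each of these genes thus lies inside its gene span. Beyond the stretch between their start sites, Col4a1 and Col4a2 each run through the window upstream of the other. The Col4a1 window held 1 CCAAT match, and the Col4a2 window held 1 CCAAT and 2 GGGCGG matches. Lama5 held 4 GGGCGG matches and Sparc held no match to any of the 5 motifs. Among 32851 windows of the same length from all genes, GGGCGG occurred in 32.7%, CCAAT in 33.8%, ACAAT in 27.7%, GATAA in 22.6% and TATAAA in 12.4%. No match to GATAA, to ACAAT or to TATAAA was found in any of the 7 windows of these genes, which were those of Col4a1, Col4a2, Lama5, Lamb1, Nid1, Hspg2 and Sparc. That says only that those letters are not in these windows. The windows of Col4a1 and Col4a2 were rich in G and C, at 74.4% and 73.6% with 31 and 26 CpG, against medians of 52.4% and 6 CpG over all windows. Lama5 (72.4%, 19 CpG), Hspg2 (70%, 20), Nid1 (64.4%, 16) and Lamb1 (62%, 14) were also above these medians. The Sparc window, at 54% and 4 CpG, was close to them.

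**Figure D1:**
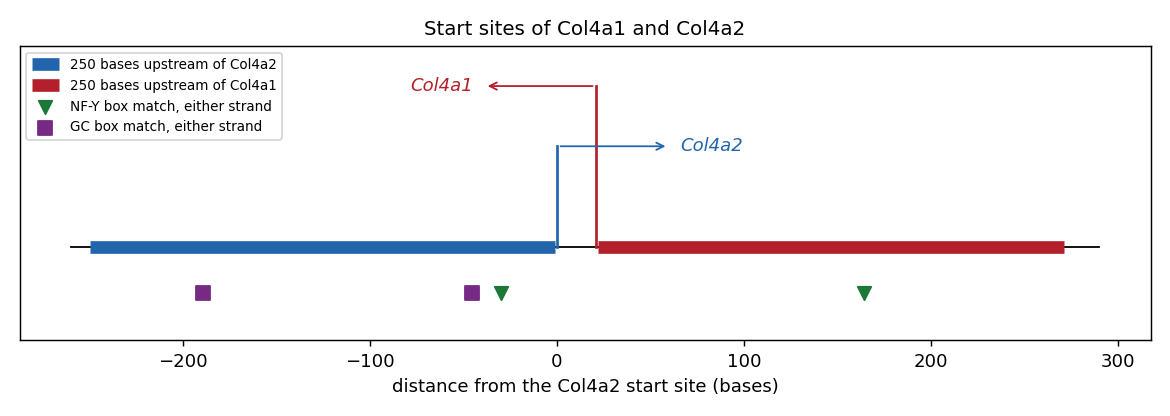
Map of the Col4a1 and Col4a2 start sites, with distance from the Col4a2 start site in bases on the horizontal axis. Bent arrows give the direction of transcription, thick bars the 250-base windows printed in the text, and markers the matches to the GC box and the NF-Y box. The start sites used here are 21 bases apart.

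The first comparison asked which transcripts differ where Ring1B alone is labelled as knocked out. All 10 basement membrane genes had a higher signal on the Ring1B KO array than on its control, by amounts from 0.18 to 1.99 on the log2 scale. Of them, 4 were 2-fold or more higher (Col4a1, Col4a2, Lama1 and Sparc) and 0 were 2-fold or more lower. Among the 12343 genes that exceeded the floor on either of these arrays, 3.54% were 2-fold or more higher and 2.61% 2-fold or more lower. By any amount, 5939 of these genes were higher and 6404 lower. The median log2 difference of the 10 genes was 0.90, beside −0.02 over all genes. In bulk RNA such as this, fewer cells of a type and less RNA per cell cannot be told apart.

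The other comparison asked the same where Ring1A and Ring1B are both labelled as knocked out. Here the same genes split. On the double KO array 5 were 2-fold or more lower than on its control (Col4a1, Col4a2, Lama5, Hspg2 and Sparc), and 1 was 2-fold or more higher (Lama1). Over all 12353 genes 9.99% were 2-fold or more lower and 3.02% 2-fold or more higher. By any amount, 6 of the 10 genes were lower and 4 higher, beside 6755 lower and 5598 higher of all genes. The median of the 10 genes was −0.87, beside −0.05 over all genes, with a range from −2.92 to 1.34.

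**Figure D2:**
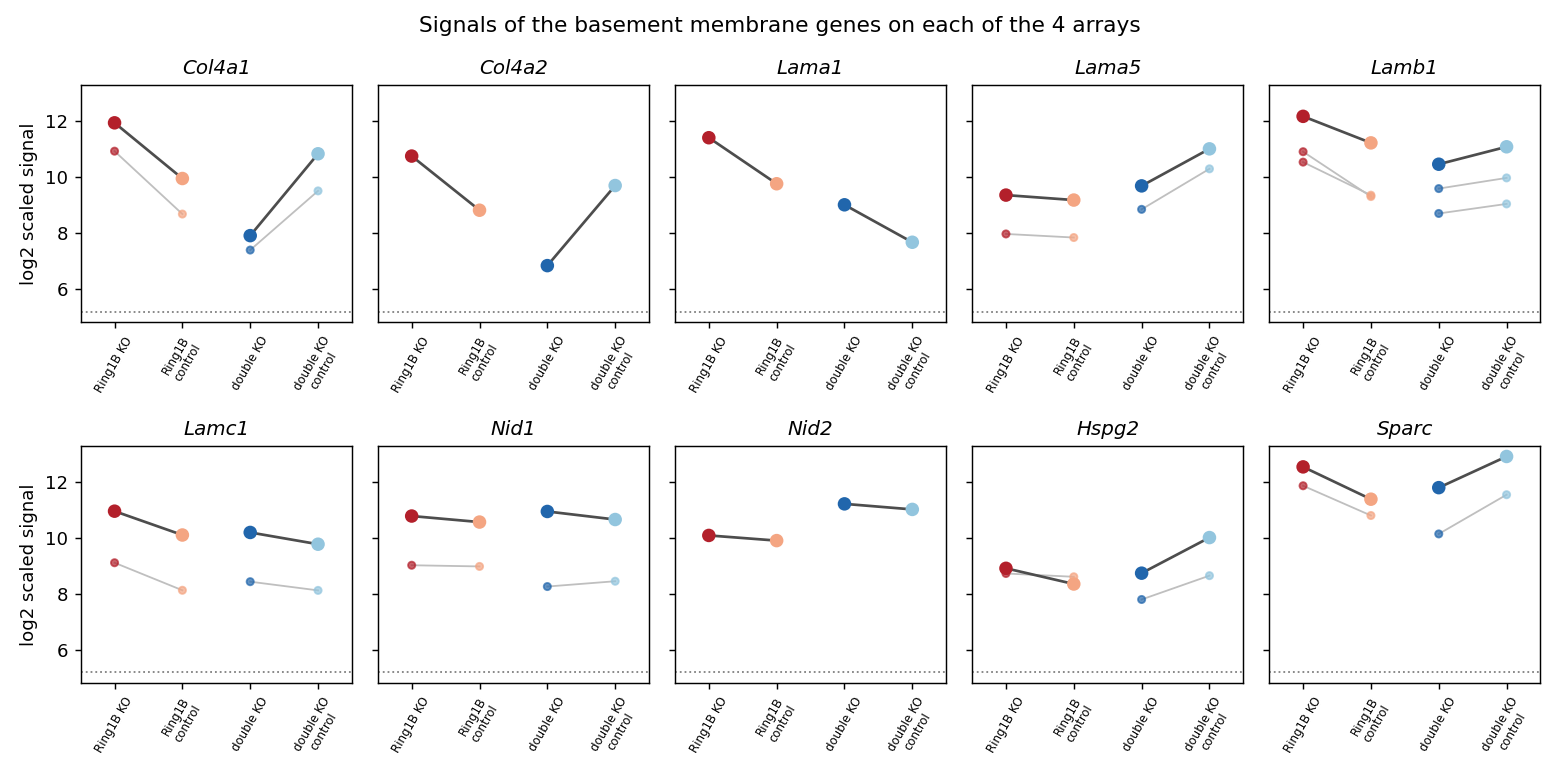
Scaled signal (log2, vertical axis) of each basement membrane gene on the Ring1B KO array, its control, the double KO array and its control. Large points are the brightest probe set of a gene, small points its other probe sets above the floor on all arrays, lines join a KO to its control, and the dotted line is the floor; Col4a1 and Col4a2 show the same zigzag, and Lama1 slopes the same way in both pairs.

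The collagen IV genes differed most. Col4a1 encodes the more abundant chain of the collagen IV molecule, and Col4a2 its partner. Col4a1 (probe set 1452035_at) read 3906 on the Ring1B KO array against 984 on its control, and 239 on the double KO array against 1815 on its control. It was thus 3.97-fold higher in the first pair and 7.58-fold lower in the other. Its dimmer probe set, 1426348_at, read 1936 against 408 and 167 against 724, or 4.74-fold higher and 4.33-fold lower. Both probe sets of Col4a1 therefore put the Ring1B KO array highest and the double KO array lowest.

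Col4a2, measured by 1 probe set (1424051_at), read 1715 on the Ring1B KO array against 449 on its control, and 114 on the double KO array against 827 on its control. These are differences of 3.82-fold higher and 7.26-fold lower. The order of the 4 arrays was that of Col4a1. Between the KO arrays, the one labelled double KO was 16.3-fold lower for Col4a1 and 15.1-fold lower for Col4a2 than the one labelled Ring1B KO.

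The likeness of the collagen IV genes was close. The log2 signals of each gene were centred on their mean over the 4 arrays. Only genes above the floor on all 4 arrays were ranked. A gene at the floor on any array, such as Gata6 on the double KO array, could thus not be named. Among the 10033 other genes ranked, Col4a2 was nearest to Col4a1, and Col4a1 to Col4a2. Their distance was 0.08 (Euclidean, in log2 units over 4 arrays). The next nearest to Col4a1 were Hspa1b at 0.57 and Dram1 at 0.63, and to Col4a2 Hspa1b at 0.56 and Ddx4 at 0.63. The probe sets behind these values target different transcripts, but all share the same 4 arrays.

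Of the laminin genes, Lama1 alone among these 10 was 2-fold or more higher in both comparisons. Lama1 encodes the alpha chain of the first laminin of the embryo. Its only probe set, 1418153_at, read 2702 on the Ring1B KO array against 864 on its control (3.13-fold higher). It read 513 on the double KO array against 203 on its control (2.53-fold higher). Over all 11615 genes with a value in both comparisons, 0.0775%, or 9 genes, were 2-fold or more higher in both. The direction in the double KO pair rests on its own control, which read lowest of the 4 arrays. Against the control of the Ring1B pair, Lama1 was 1.68-fold lower on the double KO array.

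Lama5, the alpha chain of the laminin found in most epithelial basement membranes later in development, took another course. At 1427009_at it read 653 on the Ring1B KO array against 577 on its control, and 820 on the double KO array against 2051 on its control. The first pair differed 1.13-fold, and the double KO array lay 1.32 below its control on the log2 scale (a difference of −1.32). The dimmer probe set 1427010_s_at gave 249 against 228 and 459 against 1250, or 1.09-fold higher and 2.73-fold lower. Here the double KO control stood apart from the other 3 arrays, which lay between 577 and 820 at the brighter probe set. Its remaining probe set, 1459614_at, was at the floor throughout.

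Lamb1 and Lamc1 encode the beta and gamma chains that pair with either alpha chain. Lamb1 at 1424114_s_at read 4586 on the Ring1B KO array against 2377 on its control, and 1402 on the double KO array against 2158 on its control. This was 1.93-fold higher and 1.54-fold lower. Its other probe sets disagreed in size in the first pair. They were 3.04-fold higher at 1424113_at (1911 against 629) and 2.27-fold higher at 1451241_at (1476 against 651), so that only the brightest one, which may also match other transcripts by its suffix, missed 2-fold. On the double KO array they were 1.27-fold lower (414 against 525) and 1.30-fold lower (767 against 999) than on its control, and 1446180_at was at the floor throughout.

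Lamc1 at 1423885_at read 1972 on the Ring1B KO array against 1093 on its control, and 1165 on the double KO array against 871 on its control. It was 1.80-fold higher and 1.34-fold higher. At 1423886_at the signals were 550 against 278 and 344 against 278, or 1.98-fold and 1.24-fold higher. The Ring1B KO array was the highest of the 4 for Lama1, Lamb1 and Lamc1 alike, at each of their probe sets above the floor.

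**Figure D3:**
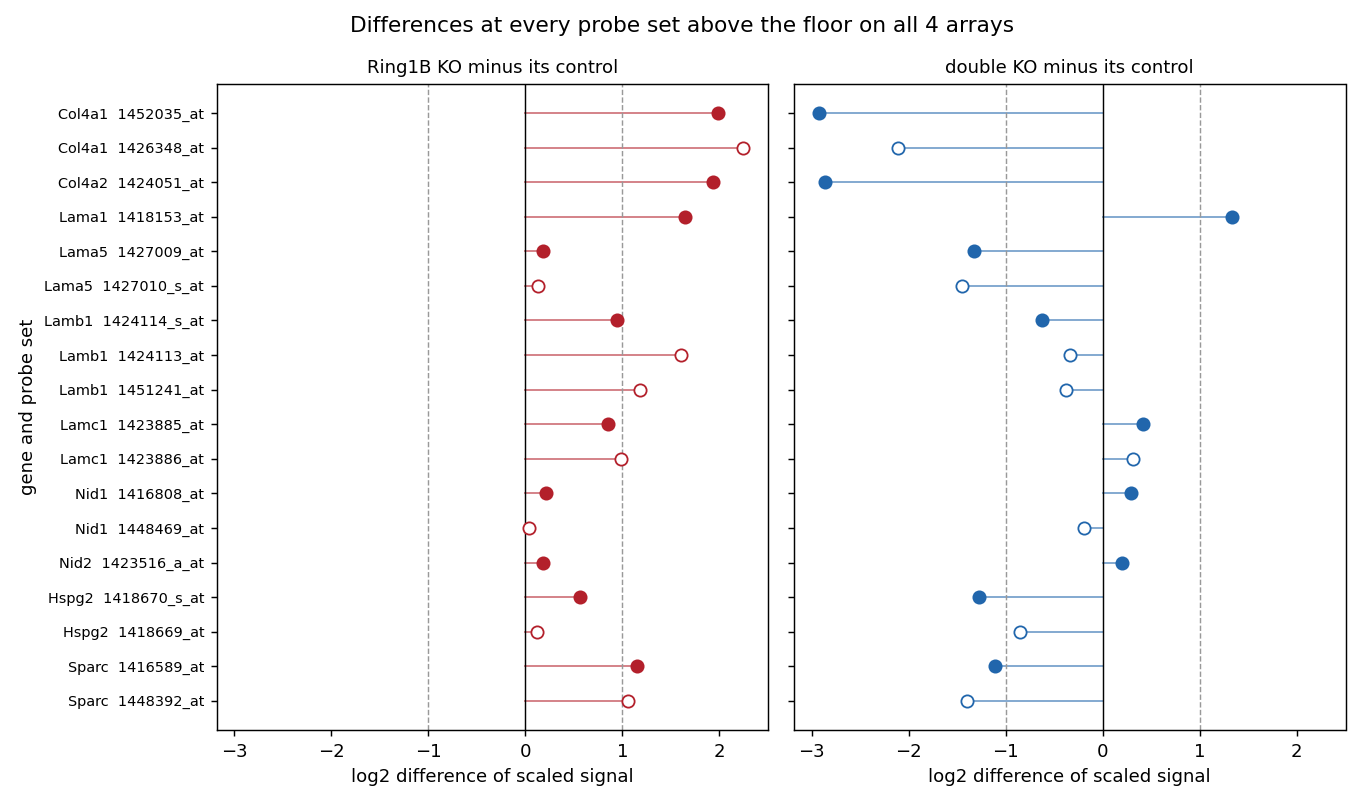
Log2 difference of scaled signal (horizontal axis) for the 18 probe sets above the floor on all 4 arrays, on the left for the Ring1B KO array minus its control and on the right for the double KO array minus its control. Filled points are the brightest probe set of a gene, open points the others, and dashed lines mark 2-fold; all 18 lie above 0 on the left, whereas on the right collagen IV lies lowest and Lama1 highest.

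The nidogens, which bridge laminin and collagen IV, differed little within the pairs. Nid1 at 1416808_at read 1749 on the Ring1B KO array against 1507 on its control, and 1958 on the double KO array against 1604 on its control, or 1.16-fold and 1.22-fold higher. At 1448469_at it read 517 against 502 and 305 against 348, so that its direction in the double KO pair depends on the probe set. The remaining one, 1441519_at, was above the floor only on the Ring1B control, and by little. Nid2 (1423516_a_at) read 1082 on the Ring1B KO array against 952 on its control, and 2364 on the double KO array against 2060 on its control, or 1.14-fold and 1.15-fold higher. For Nid2 both arrays of the double KO pair lay above both of the Ring1B pair.

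Hspg2 encodes perlecan, a heparan sulfate proteoglycan. At 1418670_s_at it read 479 on the Ring1B KO array against 325 on its control, and 425 on the double KO array against 1026 on its control, or 1.47-fold higher and 2.41-fold lower. At 1418669_at it read 422 against 389 and 222 against 400, or 1.08-fold higher and 1.80-fold lower. Both probe sets were lower on the double KO array than on its control, but they disagree about whether that control stands above the first pair. It was 3.16-fold higher than the other control at 1418670_s_at and 1.03-fold higher at 1418669_at.

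Sparc encodes a matrix protein that binds collagen IV and is made in quantity by parietal endoderm. At 1416589_at it read 5903 on the Ring1B KO array against 2653 on its control, and 3531 on the double KO array against 7640 on its control. This was 2.22-fold higher and 2.16-fold lower. At 1448392_at the signals were 3700 against 1772 and 1123 against 2964, or 2.09-fold higher and 2.64-fold lower. The dim probe set 1458204_at went the other way in the first pair, being at the floor on the Ring1B KO array against 59.6 on its control.

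Counted by probe set, 8 of the 20 with a value were 2-fold or more higher on the Ring1B KO array and 0 lower, beside 2.88% and 2.51% of all probe sets with 1 symbol. On the double KO array 8 of 19 were 2-fold or more lower and 1 higher, beside 8.37% and 2.88% of all. Col4a1, Col4a2 and Sparc, 3 of the 10 genes, were 2-fold or more higher in the first comparison and 2-fold or more lower in the other, as were 224 of 11615 genes, or 1.93%.

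**Figure D4:**
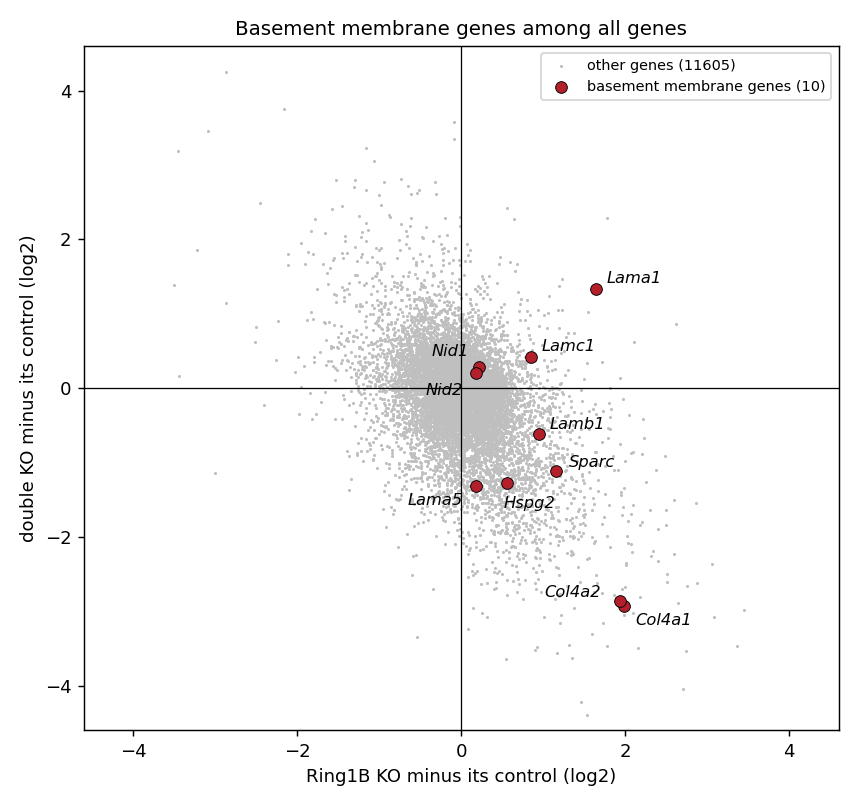
Log2 difference of the Ring1B KO array minus its control (horizontal axis) against that of the double KO array minus its control (vertical axis), for 11615 genes at their brightest probe set. Red points are the 10 basement membrane genes; Col4a1 and Col4a2 lie together at the lower right, Lama1 lies at the upper right, and Nid1 and Nid2 lie near the centre.

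The control arrays were set against each other because both are labelled wild-type. Of the 10 genes, 4 (Lama5, Hspg2, Sparc and Nid2) were 2-fold or more higher on the control of the double KO than on the Ring1B control, and 1 (Lama1) was 2-fold or more lower, beside 12.2% and 8.15% of 12645 genes. Lama1 was 4.26-fold lower (203 against 864) and Lama5 3.55-fold higher (2051 against 577), so that the alpha chains of laminin separated the controls in opposite directions. Col4a1 and Col4a2 were both 1.84-fold higher. Line, pair and array processing cannot be told apart in this comparison, which shares an array with each of the others.

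Each KO array was also set against the other control. Against the control of the other pair, Col4a1 was 2.15-fold and Col4a2 2.07-fold higher on the Ring1B KO array, and Col4a1 was 4.11-fold and Col4a2 3.94-fold lower on the double KO array. Lama1 was 13.3-fold, Lamb1 2.12-fold and Lamc1 2.27-fold higher on the Ring1B KO array than on that control. At its brightest probe set Sparc turned, being 1.29-fold lower on the Ring1B KO array and 1.33-fold higher on the double KO array than on the control of the other pair. Lama5 and Hspg2 also turned at theirs, at 3.14-fold and 2.14-fold lower on the Ring1B KO array and 1.42-fold and 1.31-fold higher on the double KO array. Nid2 turned on the Ring1B KO array, at 1.90-fold lower. At the dimmer probe sets Lama5 turned too (5.01-fold lower and 2.01-fold higher), whereas Sparc (1.25-fold higher and 1.58-fold lower) and Hspg2 (1.06-fold higher and 1.75-fold lower) kept the direction they had against their own controls. In that setting 5 of the 10 genes were 2-fold or more higher and 2 lower on the Ring1B KO array, beside 7.98% and 11.1% of all genes, and 1 was higher and 2 lower on the double KO array, beside 7.82% and 9.87%.

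The enzymes and chaperones of collagen IV assembly are the group closest to the collagen chains. Of 13 such genes above the floor, 12 had a higher signal on the Ring1B KO array than on its control, beside 5939 of 12343 genes. The median log2 difference of the 13 was 0.59, and 2 were 2-fold or more higher. These were P4ha2, a prolyl hydroxylase subunit, at 3.97-fold (1116 against 281), and Serpinh1, the collagen chaperone, at 2.28-fold (5129 against 2247). Plod1, a lysyl hydroxylase, was the 1 lower member, at 1.16-fold. In the double KO pair, 4 of 13 were 2-fold or more lower on the KO array and 0 higher, with a median of −0.39. Serpinh1 was 3.98-fold lower (462 against 1837) and Lox, a lysyl oxidase, 3.94-fold lower (425 against 1671), and the largest higher values were 1.07-fold for P4hb and 1.05-fold for Mia3. Between the controls the median was 0.26, and 2 genes were 2-fold or more higher on the double KO control, Colgalt1 (2.53-fold) and Pxdn (2.80-fold).

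The other basement membrane genes had a median of −0.20 in the Ring1B pair. Of 16 above the floor, 1 was 2-fold or more higher and 1 lower. Tinagl1, a secreted matrix protein related to cathepsins, was 2.31-fold higher, and Frem2 was at least 5.74-fold lower, its signal being at the floor on the Ring1B KO array. Col18a1 was 1.78-fold lower and Lama3 at least 1.64-fold higher. In the double KO pair 3 of 12 were 2-fold or more lower on the KO array and 0 higher, with a median of −0.59. Tinagl1 was 8.92-fold lower (84.5 against 754) and Npnt at least 3.81-fold lower, while Frem2 was 1.53-fold and Lama3 1.41-fold higher. The tissue-restricted chains Col4a3, Col4a4 and Lamc3 were at the floor on all 4 arrays.

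The receptors for laminin and collagen had a median of 0.03 in the Ring1B pair, with 0 of 11 genes 2-fold apart in either direction, from Bcam and Sgce at 1.97-fold and 1.56-fold lower to Ddr2 at 1.45-fold and Itgb4 at a bound of 1.64-fold higher. In the double KO pair all 11 had a lower signal on the KO array than on its control, beside 6755 of 12353 genes. Of the 11, 4 were 2-fold or more lower, and the median was −0.86. The collagen-binding integrin gene Itga1 was 2.83-fold lower (37.1 against 105) and the laminin-binding Itga3 2.63-fold lower (151 against 398).

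Genes of primitive endoderm, the tissue that makes much of this matrix in the embryo, ran the same way as the collagen IV genes. On the Ring1B KO array 8 of 9 were 2-fold or more higher than on its control, with a median of 2.15. Sox7 was 5.58-fold and Sox17 5.17-fold higher, and Hnf4a was 1.12-fold lower. Their summed signal was 7437 on the Ring1B KO array against 1678 on its control, and 295 on the double KO array against 1338 on its control. On the double KO array 6 of 8 were 2-fold or more lower than on its control, with a median of −1.51 including bounds, and 7 of 9 were at the floor, among them Gata6 (at least 11.3-fold lower), while Gata4 was 3.45-fold lower. Parietal endoderm markers had 6 of 10 2-fold or more higher on the Ring1B KO array (median 1.08) and 5 of 9 2-fold or more lower on the double KO array (median −1.20). Among them Krt8 was 2.57-fold higher and 4.68-fold lower, Stra6 at least 2.78-fold higher in the first pair and at the floor in the other, and Krt19 5.24-fold lower in the other. Of the 9 markers in the double KO pair 2 were higher on the KO array, Fst at 1.41-fold (123 against 86.7) and Plat at a bound of 1.04-fold.

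Visceral endoderm markers had 4 of 6 above the floor 2-fold or more higher on the Ring1B KO array (median 1.97), led by Amn (5.06-fold) and Cubn (4.49-fold), and 3 of 4 2-fold or more lower on the double KO array (median −1.76), led by Cited1 (6.88-fold). Of the others listed, Afp, Apoa1, Apob and Ihh were at the floor on all 4 arrays. Ttr was above it only on the Ring1B KO array (59.3), at least 1.62-fold higher than on its control. The 10 visceral markers summed to 13067 on the Ring1B KO array against 6051 on its control, and 2436 on the double KO array against 6163 on its control. Those of the parietal markers were 10991 against 7237 and 3523 against 10427 in the same order. Single genes made up much of these sums. In that order, Rhox5 alone gave 6696, 4603, 1701 and 4288 of the visceral sums. Vim gave 7500 and 5610 of the parietal sums in the Ring1B pair, and Krt18 gave 5523 on the double KO control. The part of these cell types in the basement membrane differences was not tested.

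Fibroblasts, which can be present as a feeder layer, also make collagen IV and Sparc. Of their markers 1 of 13 was 2-fold or more higher on the Ring1B KO array (Twist1, 3.05-fold, with a list median of 0.42). In the other pair 12 of 14 were 2-fold or more lower on the double KO array (median −1.74), led by Timp3 (6.51-fold) and Col6a2 (at least 5.39-fold). Fn1, which ES cells also express, was 1.13-fold lower in the first pair and 1.22-fold higher in the other. The summed marker signals were 17223 on the Ring1B KO array against 14204 on its control, and 7724 on the double KO array against 10544 on its control. Fn1 made up most of the double KO sum, at 6222. Without it the other 13 markers summed to 12792 on the Ring1B KO array against 9180.4 on its control, and to 1502 on the double KO array against 5435 on its control. Acta2 alone gave 6371, 4762, 420 and 1502 of these sums in the same order. The part of fibroblasts in the lower collagen IV and Sparc signals of the double KO array was not tested.

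Endothelial cells are another source of basement membrane. Of the 10 markers listed for them, Cdh5, Kdr, Tie1 and Emcn were at the floor on all 4 arrays. The 6 above the floor did not run one way, with 3 higher and 3 lower in each pair and medians of 0.05 and 0.93. On the Ring1B KO array 0 were 2-fold or more higher and 2 lower, and on the double KO array 3 were higher and 2 lower. Pecam1 and Tek, which ES cells can express, were 2.49-fold and 2.45-fold lower on the Ring1B KO array and 6.51-fold and 3.71-fold higher on the double KO array. Flt1 and Esam ran the other way, at 1.86-fold and 1.32-fold higher on the Ring1B KO array and at least 2.59-fold and 2.46-fold lower on the double KO array. Vwf was 3.69-fold higher on the double KO array (299 against 80.8). In the Ring1B pair it was at the floor on the KO array against 42.4 on its control, a bound of 1.16-fold lower. The summed signals of the endothelial markers were 822 on the Ring1B KO array against 1105 on its control, and 1809 on the double KO array against 821 on its control. The pluripotent ES markers had medians of −0.26 and 0.66, with Sox2 1.57-fold lower and 1.76-fold higher. Klf4 ran the other way in both pairs, at 1.39-fold higher and 1.51-fold lower. Within the pairs, Tdgf1 was the 1 pluripotent marker 2-fold or more apart, at 2.04-fold higher on the double KO array. Between the controls 3 of the 10 were 2-fold or more lower on the double KO control and 0 higher, beside 8.15% and 12.2% of all genes. The largest differences were those of Sox2 (2.72-fold) and Tdgf1 (2.23-fold).

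**Figure D5:**
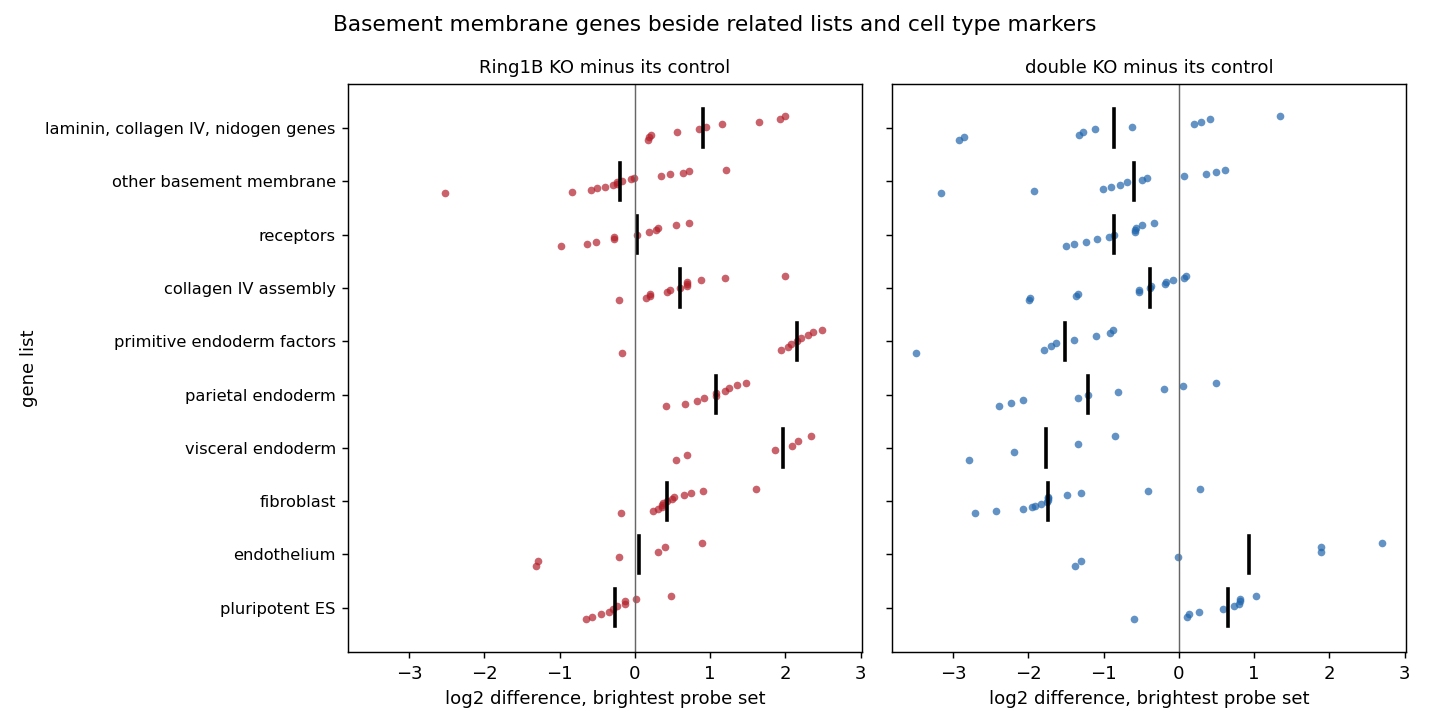
Log2 difference of each list member above the floor on at least 1 array of a pair (points) and list median (black bars), on the left for the Ring1B KO array minus its control and on the right for the double KO array minus its control. The first row holds the 10 laminin, collagen IV, nidogen, perlecan and Sparc genes, with medians of 0.90 and −0.87; the primitive endoderm factors lie farther from 0 on both sides, at 2.15 and −1.51.

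Several list values rested on the control used. Against the control of the other pair, the collagen IV assembly genes had 6 higher and 7 lower on the Ring1B KO array. Over all 12548 genes 5208 were higher and 7340 lower there. The assembly genes had a median of −0.11, though 5 were 2-fold or more higher. The receptors had 6 of 11 lower by 2-fold or more there and 1 higher (median −1.01), and on the double KO array 2 in each direction (median −0.49). Parietal endoderm markers had medians of 0.61 and −0.25, with 4 higher and 3 lower by 2-fold or more on the Ring1B KO array and 1 higher and 2 lower on the double KO array. Primitive endoderm factors had 8 of 9 higher by 2-fold or more on the Ring1B KO array (median 2.16) and 7 of 8 lower on the double KO array (median −1.65). Fibroblast markers had 5 of 14 higher and 1 lower on the Ring1B KO array (median 0.64) and 10 of 13 lower on the double KO array (median −2.07). Visceral endoderm markers had 2 of 6 higher by 2-fold or more on the Ring1B KO array (median 0.78). On the double KO array 3 of 5 were lower by 2-fold or more (median −1.44). The pluripotent ES markers had medians of 0.38 and 0.01. Other basement membrane genes had medians of −0.59 and −0.56, and endothelial markers of −0.08 and 0.48.

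Distances of the same kind name the 3 genes nearest in pattern to each of the other 8. Nearest to Lama1 were Ypel2, Tmem263 and Rex2, at 0.68, 0.86 and 0.87. Lama1 thus had no neighbour as close as those of the other members, whose nearest genes lay between 0.05 and 0.16. For Col4a1 and Col4a2 that nearest gene was the other collagen IV gene, and the next, Hspa1b, lay at 0.57 and 0.56. Lama5 had Hpn (0.10), Pcsk6 (0.12) and Rab6b (0.16), and Hspg2 had M1ap (0.11), Stat5a (0.12) and Arih2 (0.15). Lamb1 had Anxa8 (0.16), Epha2 (0.22) and Tns1 (0.22), and Lamc1 had Mpzl2 (0.13), Irs4 (0.13) and Eaf1 (0.16). Nid1 had Traf6, Ahcy and Golga3 (0.05, 0.05 and 0.06), and Nid2 had Ilvbl, Ttf1 and Fam168b (0.06, 0.06 and 0.08). Sparc had Prrg2 (0.07), Tnfaip3 (0.10) and Snai1 (0.12), a gene of the parietal endoderm list. Among the 10 genes themselves, the closest pair after collagen IV was Lama5 with Hspg2, at 0.43 at their brightest probe sets. Among all genes ranked, Hspg2 stood at rank 83 from Lama5, and Lama5 at rank 122 from Hspg2.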

How the data were processed

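Total RNA of ES cells was hybridised to 4 arrays in 4 groups of 1, grouped by their labels. The deposited values are linear intensities, 1 signal per probe set. The submitters' processing notes name MAS5 for them, with no version or setting given in the sources used here. Their 2%-trimmed means were 500.0 on each array of the Ring1B pair, 147 on the array labelled double KO and 160 on its control, so each array was rescaled to a common 277. Signals were floored at 36.6, the 40th percentile of scaled signals of probe sets with 1 gene symbol, which shrinks differences of dim genes, and log2-transformed. Symbols came from GEO's platform annotation. Of 45101 probe sets 34958 carried 1 symbol, and 34945 of them were kept once the manufacturer's control probe sets were left out. The 932 with several symbols were left unnamed, and RefSeq identifiers changed 0 symbols. The brightest probe set by mean log2 signal stood for a gene, and all others of the 10 genes are given. A fold with 1 array at the floor is a bound. Differences of at least 2-fold were counted, and no test was run. Saturation was not assessed.

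The members, the lists (other basement membrane, receptors, collagen IV assembly, primitive endoderm factors) and the markers (parietal and visceral endoderm, fibroblast, endothelium, pluripotent ES) were chosen with earlier results of these data known. Named were all 10 members, Ring1 and Rnf2, up to 2 list genes per direction and comparison, and the 3 genes nearest to a member by Euclidean distance of centred log2 signals, without clone-type symbols. Colgalt1, Pxdn, Vwf and Ttr, the genes named for their share of a summed signal, and the chains and markers named as at the floor, were chosen after their values were seen. Promoter sequences came from RefSeq (GRCm38.p6), which held 7 of the 10 genes. Alternatives were other floors, scalings, probe set rules and the control of the other pair. The steps were tested on simulated data. Python 3.11.15, pandas 2.3.3 and scipy 1.17.1 were used.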

Additional observations from a re-analysis of the deposited data

Results flagged for a closer look

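Col4a1, Col4a2 and Sparc were at least 2-fold apart in opposite directions in the 2 comparisons, which is what marks them here. With 1 array per group this difference was not tested. Col4a1 differed by 1.99 on the log2 scale on the Ring1B KO array and by −2.92 on the double KO array, each against its own control. Col4a2 differed by 1.93 and −2.86, and Sparc by 1.15 and −1.11.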

How the results depend on the processing

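The collagen IV differences and those of Lama1 within each pair kept their direction and stayed at least 2-fold under the 6 alternatives of floor, scaling and probe set, from 1.93 to 2.12 and −3.05 to −2.52 for collagen IV and from 1.62 to 1.64 and 1.21 to 1.34 for Lama1. With the mean over probe sets, which includes dim ones, Sparc fell under 2-fold (0.50 and −0.98), as did Lama5 (−0.92), and the members 2-fold or more lower on the double KO array numbered 3 in place of 5. With probe sets ending in _s_at or _x_at left out, Lamb1 passed 2-fold in the Ring1B pair (1.18) and Hspg2 missed it in the double KO pair (−0.85).

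Against the control of the other pair, the median on the double KO array turned to 0.23, with 2 members lower. On the Ring1B KO array 2 members were lower in place of 0. There Lama5, Nid2, Hspg2 and Sparc turned to −1.65, −0.93, −1.10 and −0.37 on the Ring1B KO array, and Lama1, Lama5, Hspg2 and Sparc to −0.75, 0.51, 0.39 and 0.41 on the double KO array. Between the controls, the values as deposited, which were not on a common scale, gave a median of −0.76 in place of 0.88, with 0 members higher and 4 lower, and turned Col4a1 and Col4a2 to −0.76 each and Nid1, Nid2 and Sparc to −1.55, −0.53 and −0.11, each of the 10 genes moving by the same amount. They also moved the median of all genes to −1.32. The mean over probe sets left 2 members higher between the controls. Lamb1 turned there to 0.05, and to 0.62 without _s_at and _x_at probe sets, and Nid1 to −0.19 with the mean. The cause was not tested.

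With 1 array per group leaving out a replicate was not possible, and dim probe sets at the floor have no order. No paired analysis was possible because each group holds 1 array.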
